A study of Mus musculus with 21 samples.

Results

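Has2, Ptgs2, Ptx3, Tnfaip6, Pgr, Areg, Ereg, Btc and Vcan, the genes with which the follicle answers the ovulatory hormone surge, were followed through 21 RNA libraries of mouse oocytes and granulosa cells. The 9 genes were chosen by symbol among 55335 gene identifiers, and each has 1 identifier in every library. The study asked what human umbilical cord mesenchymal stem cells, sorted by flow cytometry for the surface receptor LRP1, do to the ovaries of aged female mice. Oocyte libraries came from 3 Young, 2 Aged, 2 Aged + Unsorted, 3 Aged + LRP1high and 2 Aged + LRP1low replicates. Granulosa libraries came from 1 Young, 2 Aged, 1 Aged + Unsorted, 3 Aged + LRP1high and 2 Aged + LRP1low replicates. Young mice were 6 to 8 weeks old and aged mice 18 months, and the study's methods name the ICR strain. In the Unsorted, LRP1high and LRP1low groups the human cells had been injected under the ovarian capsule 3 weeks earlier. Young and Aged mice received none, and a sham operation is not stated. Ovaries were scraped to release cumulus-oocyte complexes, granulosa cells were split off with hyaluronidase, and oocytes were described as having reached metaphase II. No hormone injection is stated for these animals, and neither the number of mice nor the number of cells in a library is given in the sources used here. The titles call every library a biological replicate without saying what was repeated, and every p-value below measures the spread between libraries.

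In the ovary, luteinizing hormone acts on the mural granulosa cells of a preovulatory follicle, which then make the EGF-like growth factors amphiregulin (Areg), epiregulin (Ereg) and betacellulin (Btc). These are shed from the membrane and activate the EGF receptor on cumulus cells. Cumulus cells in turn switch on Has2, which makes hyaluronan, Ptgs2, which makes prostaglandin precursors, and Tnfaip6 and Ptx3, whose proteins crosslink hyaluronan into an elastic matrix. Versican (Vcan) binds hyaluronan and is made by mural granulosa cells, and the progesterone receptor (Pgr) drives follicle rupture. The response is transient and belongs to somatic cells, and the oocyte itself is not known as its source.

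The windows before the gene starts were searched for letters of elements known from genes of this response. RefSeq's table for GRCm38.p6 holds 7 of the 9 genes, all but Has2 and Ereg. The 4 windows shown are a choice among these 7: those of a ligand, the prostaglandin enzyme, a matrix crosslinker and the matrix proteoglycan. Each is 250 bases long, reads 5′ to 3′ on the strand of the gene and ends at the base before the RefSeq start. Areg lies at chr5:91139349-91139598 (plus strand), Ptgs2 at chr1:150099781-150100030 (plus strand), Ptx3 at chr3:66219637-66219886 (plus strand) and Vcan at chr13:89742513-89742762 (minus strand). Capitals mark a full cyclic AMP response element (TGACGTCA), the core of that element (TGACG), a C/EBP site (TTNNGCAA), a RUNX site (TGTGGT) and a TATA box (TATAAA), each searched on both strands.
Areg: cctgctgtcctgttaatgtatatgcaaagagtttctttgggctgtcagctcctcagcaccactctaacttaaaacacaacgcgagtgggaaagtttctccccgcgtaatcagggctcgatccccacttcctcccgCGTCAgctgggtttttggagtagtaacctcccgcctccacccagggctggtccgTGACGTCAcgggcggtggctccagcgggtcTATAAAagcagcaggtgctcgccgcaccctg
Ptgs2: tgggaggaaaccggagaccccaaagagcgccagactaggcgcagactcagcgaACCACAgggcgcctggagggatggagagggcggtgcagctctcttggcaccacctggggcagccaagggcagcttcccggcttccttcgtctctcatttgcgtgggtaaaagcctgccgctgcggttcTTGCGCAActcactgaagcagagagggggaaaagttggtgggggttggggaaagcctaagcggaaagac
Ptx3: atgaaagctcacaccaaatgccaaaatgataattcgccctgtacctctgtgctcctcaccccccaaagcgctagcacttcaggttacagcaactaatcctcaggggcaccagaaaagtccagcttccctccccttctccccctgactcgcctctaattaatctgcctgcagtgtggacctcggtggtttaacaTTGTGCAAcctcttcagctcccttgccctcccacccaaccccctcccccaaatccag
Vcan: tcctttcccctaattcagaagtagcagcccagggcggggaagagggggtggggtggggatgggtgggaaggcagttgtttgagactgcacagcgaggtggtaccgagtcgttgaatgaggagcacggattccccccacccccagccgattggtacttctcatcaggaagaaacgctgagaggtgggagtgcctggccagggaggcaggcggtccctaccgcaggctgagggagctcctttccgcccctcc

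The full response element of Areg starts 61 bases before the gene start and its TATA box 31 bases before it. Among 32851 such windows in the table, 1.55% hold a full response element and 12.4% a TATA box. The core, which the full element holds on both strands, occurs in 17.8% of windows. In Ptgs2 a C/EBP match starts 69 bases and a RUNX match 197 bases before the start. In Ptx3 a C/EBP match starts 57 bases before it. C/EBP matches occur in 9.56% and RUNX matches in 14.0% of all windows. In the Vcan window none of the letters searched was found, including AP-1 (TGANTCA, 6.75% of windows), NR5A (AAGGTCA, 4.08%) and E-box (CACGTG, 6.02%). Tnfaip6 has an AP-1 match starting 142 bases before its start. A match is a description of letters, and no binding was measured.

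Several libraries went against their labels, and this bears on every value below. All 10 oocyte markers (zona pellucida genes, Gdf9, Bmp15 and others) lay above the background of their library in 8 of the 12 oocyte libraries, with median levels of 84.9 to 1001 FPKM (fragments scaled to gene length and to the library's total, a level comparable between genes). In the other 4, which are Young replicate 1, Aged replicate 1 and both Aged + LRP1low replicates, the marker medians were 0.892, 11.6, 5.02 and 7.77 FPKM. Of the 9 granulosa libraries, Young and Aged + LRP1high replicate 3 had granulosa and cumulus markers as labelled, with medians of 74.9 and 21.4 FPKM and 9 and 8 of 10 markers above background. In the other 7 the granulosa medians were 0.0482 to 1.27 FPKM. One of these, Aged + Unsorted, held all 10 oocyte markers with a median of 800 FPKM, and its profile was closest to that of an oocyte library, Aged + Unsorted replicate 2 (Spearman 0.931 over genes). Aged + LRP1low replicate 1 held luteal markers, with a median of 519 FPKM. The predicted transcript Gm10800 took 59.0% to 86.6% of TPM in 7 of the 9 granulosa libraries, 81.9% and 83.3% in Aged among them, and 78.1% in oocyte Young replicate 1. It took 42.6% and 17.4% in oocyte Aged replicates 1 and 2, and 37.5% and 55.5% in the oocyte Aged + LRP1low replicates. Depth, computed from coverage and FPKM, was 0.278 to 3.40 aligned gigabases in oocyte and 0.335 to 1.49 in granulosa libraries. No read counts were used, so no counting interval is given.

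Background was read from 1978 olfactory and vomeronasal receptor genes, which ovarian cells are not known to use. A value is called above background when it exceeds the 95th percentile of these genes in its own library. By construction 5% of the receptor genes do so. They are shorter than the 9 genes (median 2542.5 against 4237 exonic bases), so a stray read weighs more on them. The percentile ranged from 0.0516 FPKM in oocyte Aged + LRP1high replicate 1 to 10.7 FPKM in oocyte Aged replicate 1. Of the 189 values of the 9 genes, 77 (40.7%) were listed at 0, 42 reached 1 FPKM and 25 (13.2%) lay above background. By cell type, 14 of 81 granulosa values and 11 of 108 oocyte values lay above it. The most complete set of transcripts was in the granulosa Young library, where 5 of the 9 genes (Vcan, Ptx3, Tnfaip6, Btc and Ptgs2) passed. In the 7 granulosa libraries without their markers, 8 of 63 values passed.

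**Figure D1:**
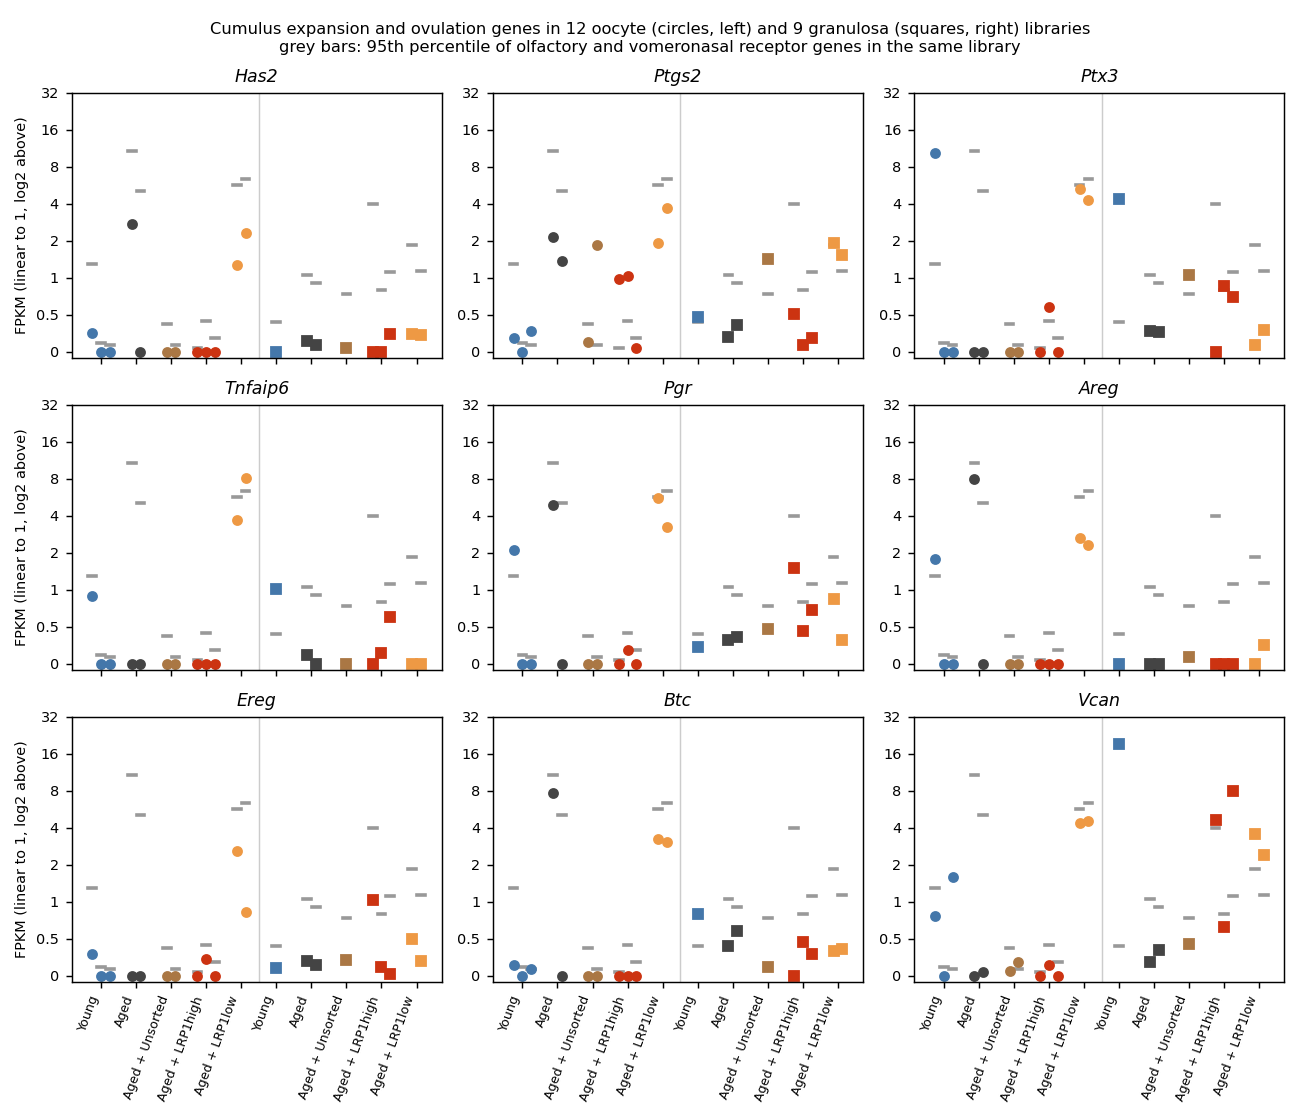
FPKM of each gene (y axis, linear to 1 and log2 above) in every library, with groups on the x axis, oocytes as circles on the left, granulosa cells as squares on the right, and a grey bar at the 95th percentile of the receptor genes of that library. Vcan in granulosa Young (19.0 FPKM) stands highest above its bar, and in the oocyte Aged + LRP1low libraries 17 of 18 points lie under theirs.

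**Figure D2:**
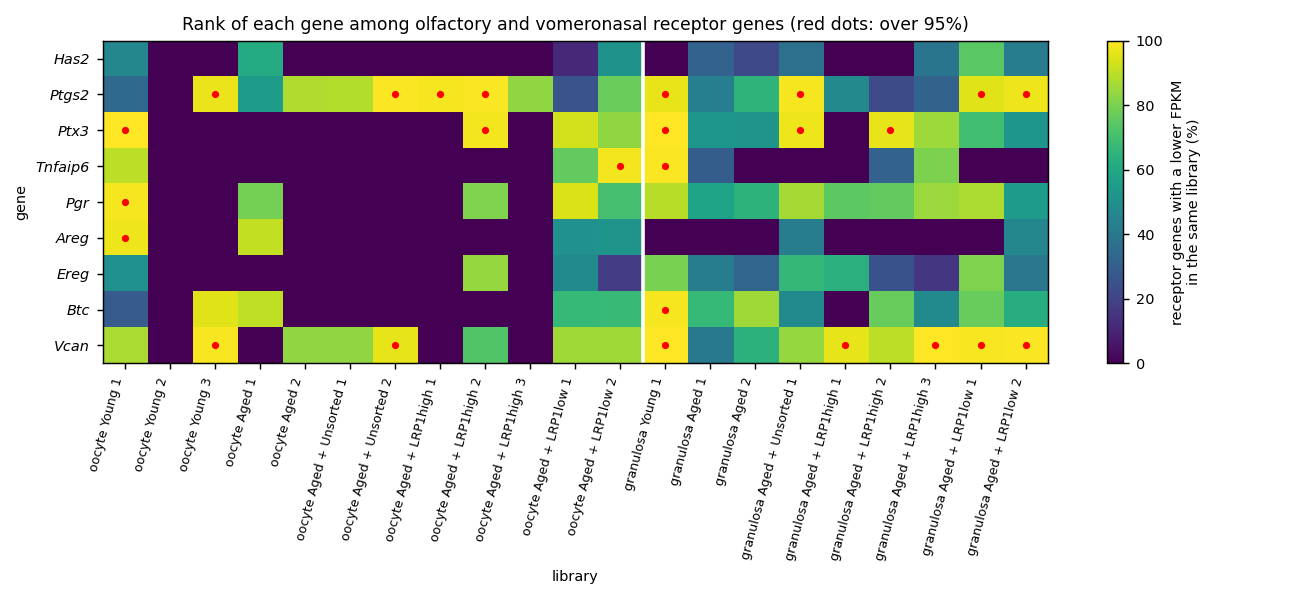
Share of the 1978 receptor genes (colour, in %) with a lower FPKM than the gene of that row in the library of that column, with oocyte libraries left and granulosa libraries right of the white line and red dots where it is over 95%. Dots number 25 of 189, with 7 for Vcan, 8 for Ptgs2, 5 for Ptx3 and 0 for Has2 and Ereg.

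The EGF-like ligands were at or near background almost throughout. Areg, Ereg and Btc are neighbours within 328373 bases of chromosome 5 (91074622 to 91402994, GRCm38). Areg (ENSMUSG00000029378.5), the most strongly induced ligand of the ovulatory follicle, was listed at 0 in 7 of 9 granulosa libraries, and it had 0.0863 FPKM in Aged + Unsorted and 0.251 FPKM in Aged + LRP1low replicate 2. In oocyte libraries Areg was at 0 in 8 of 12. Its values in the other 4 were 1.79 FPKM in Young replicate 1, 7.92 in Aged replicate 1, and 2.64 and 2.32 in the Aged + LRP1low replicates. These are the 4 libraries with low oocyte markers, and Areg exceeded the receptor percentile only in Young replicate 1 (1.297 FPKM). That value rests on 2.94 kilobases of aligned sequence.

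Ereg (ENSMUSG00000029377.5), which acts beside Areg on the same receptor, passed background in 0 of 21 libraries. It had a low value in all 9 granulosa libraries, from 0.0185 FPKM in Aged + LRP1high replicate 3 through a median of 0.197 to 1.04 in Aged + LRP1high replicate 1. The highest oocyte values were 2.56 and 0.857 FPKM in the Aged + LRP1low replicates. Gm19610, on the other strand, shares 141 exonic bases with Ereg, and whether the counting used strand is not stated. Btc (ENSMUSG00000082361.6), the third ligand, passed in 1 library, granulosa Young, at 0.836 FPKM against a percentile of 0.401. Its other granulosa values ran from 0 to 0.605 FPKM. In oocyte libraries Btc stood at 7.73 FPKM in Aged replicate 1, 3.22 and 3.04 in the Aged + LRP1low replicates and 0 to 0.146 in the other 9. All 3 of those higher values lay under the receptor percentile of their library.

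Pgr (ENSMUSG00000031870.16, chromosome 9), the transcription factor of follicle rupture, had a value above 0 in all 9 granulosa libraries and passed background in 0 of them. The granulosa values were 0.232 FPKM in Young, 0.318 and 0.358 in Aged, 0.470 in Aged + Unsorted, 1.497, 0.445 and 0.725 in Aged + LRP1high and 0.873 and 0.315 in Aged + LRP1low. All 3 Aged + LRP1high values were above both Aged values, and so were those of 28.7% of all genes above 0 in these libraries. Each of these 5 Pgr values lay under the receptor percentile of its library. Pgr was not tested in granulosa cells, since its mean over the 9 libraries, 0.581 FPKM, was under the minimum of 1. In oocytes it was at 0 in 7 of 12 libraries. Of the others, Young replicate 1 had 2.12 FPKM and was above background, Aged replicate 1 had 4.92, the Aged + LRP1low replicates had 5.53 and 3.22, and Aged + LRP1high replicate 2 had 0.192.

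Ptgs2 (ENSMUSG00000032487.8, chromosome 1), the inducible cyclooxygenase, was the gene most often above background, in 4 granulosa and 4 oocyte libraries. The granulosa levels were 0.469 FPKM in Young, 0.206 and 0.362 in Aged, 1.43 in Aged + Unsorted, 0.514, 0.0906 and 0.187 in Aged + LRP1high, and 1.90 and 1.52 in Aged + LRP1low. Both Aged + LRP1low values were above all 5 values of Aged and Aged + LRP1high, an order that 1.33% of all genes above 0 in these libraries showed. The mean was 1.71 ± 0.268 FPKM (SD, n = 2) in Aged + LRP1low, 0.284 ± 0.110 (n = 2) in Aged and 0.264 ± 0.222 (n = 3) in Aged + LRP1high. With a mean of 0.742 FPKM over the 9 libraries Ptgs2 was also under the minimum for testing, so the separation is given without a test. Both Aged + LRP1low libraries also held luteal markers (medians of 519 and 3.98 FPKM), while Aged + LRP1high replicates 1 and 3 had luteal medians of 25.8 and 15.6 FPKM with less Ptgs2. The part of luteal cells in the Ptgs2 level was not tested. In these bulk samples, more cells of a type and more RNA per cell cannot be told apart.

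Among libraries rich in oocyte markers Ptgs2 passed background more often than Vcan (2 of 8) and Ptx3 (1 of 8), and the other 6 genes passed in none. In those 8 libraries its level was 0 and 0.276 FPKM in Young replicates 2 and 3, 1.36 in Aged replicate 2, 0.137 and 1.84 in Aged + Unsorted, and 0.977, 1.03 and 0.0528 in Aged + LRP1high. It exceeded background in 4 of the 8, and the highest value, in Aged + Unsorted replicate 2, was far above the percentile of 0.0925 FPKM there. The granulosa Aged + Unsorted library, which resembled that oocyte library, had a like value of 1.43 FPKM. Granulosa and cumulus markers were above background in these 8 oocyte libraries too. Where Ptgs2 passed, 10 (Young replicate 3), 8 (Aged + Unsorted replicate 2), 3 and 2 (Aged + LRP1high replicates 1 and 2) of 10 markers did. Where Ptgs2 did not pass, 1 to 5 markers did. The part of somatic cells in this Ptgs2 level was not tested. In the other 4 oocyte libraries Ptgs2 was 0.188 FPKM in Young replicate 1, 2.14 in Aged replicate 1 and 1.93 and 3.70 in Aged + LRP1low, all under their percentiles. Both Aged values exceeded the 3 Young values, as 7.30% of all genes above 0 in these libraries did. Both Aged values lay under their receptor percentiles of 10.7 and 5.11 FPKM. Of the Young values only that of replicate 3 lay above its own. Over all 12 libraries the difference in log2(FPKM + 1) from Young to Aged was 1.24 (SE 0.65, limma adjusted p = 0.515), and it did not pass.

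The genes of the hyaluronan matrix differed among themselves. Has2 (ENSMUSG00000022367.7, chromosome 15), the hyaluronan synthase of cumulus expansion, passed background in 0 of 21 libraries. It was 0 in granulosa Young and at most 0.246 FPKM in the 9 granulosa libraries. In oocytes it was 0 in the 8 libraries rich in oocyte markers, 0.253 in Young replicate 1, 2.75 in Aged replicate 1 and 1.27 and 2.29 in Aged + LRP1low. The antisense transcript Has2os shares 182 exonic bases with it.

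Tnfaip6 (ENSMUSG00000053475.5, chromosome 2), which transfers heavy chains onto hyaluronan, was at 0 in 14 of 21 libraries. It passed background in granulosa Young, at 1.00 FPKM, a value that rests on 1.19 kilobases of aligned sequence. The other granulosa values were 0.122 FPKM in Aged replicate 1, 0.146 and 0.634 in Aged + LRP1high replicates 2 and 3, and 0 in the other 5. In oocytes it was 0.914 FPKM in Young replicate 1, 3.67 and 8.06 in Aged + LRP1low and 0 in the other 9. Replicate 2 of Aged + LRP1low passed the percentile of 6.33 FPKM, on 3.83 kilobases of sequence, and replicate 1 did not pass 5.67.

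Ptx3 (ENSMUSG00000027832.5, chromosome 3), which holds those heavy chains together, was highest in an oocyte library, Young replicate 1, at 10.3 FPKM against a percentile of 1.297. That library had low oocyte markers and 6 of 10 granulosa and cumulus markers above background. Young replicate 3 and Aged + Unsorted replicate 2, rich in oocyte markers, had 10 and 8 of these markers above background, with Ptx3 at 0. In granulosa Young it was 4.39 FPKM. Other granulosa values were 0.282 and 0.267 in Aged, 1.06 in Aged + Unsorted, 0, 0.893 and 0.737 in Aged + LRP1high and 0.0856 and 0.298 in Aged + LRP1low. Among the oocyte libraries Aged + LRP1low had 5.23 and 4.25 FPKM, both under their percentiles, and Aged + LRP1high replicate 2 had 0.601, above its own. It was 0 in the other 8.

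Vcan (ENSMUSG00000021614.16, chromosome 13), the proteoglycan of the expanding matrix, was the most abundant of the 9 genes in granulosa libraries and passed background in 5 of them. Its level was 19.0 FPKM in Young, 0.185 and 0.349 in Aged, 0.430 in Aged + Unsorted, 4.64, 0.657 and 8.02 in Aged + LRP1high and 3.56 and 2.40 in Aged + LRP1low. Every transplanted value, Unsorted included, lay above both Aged values, as for 7.46% of all genes above 0 in these libraries. For 1.91% of genes, Vcan included, every aged value was also below Young. The values of Aged, Aged + Unsorted and Aged + LRP1high replicate 2 lay under their receptor percentiles of 1.06, 0.928, 0.782 and 0.833 FPKM. Group means were 4.44 ± 3.69 FPKM (SD, n = 3) in Aged + LRP1high, 2.98 ± 0.819 (n = 2) in Aged + LRP1low and 0.267 ± 0.116 (n = 2) in Aged. In oocyte libraries Vcan was above background in Young replicate 3 (1.58 FPKM) and Aged + Unsorted replicate 2 (0.191). Those libraries also had 10 and 8 of 10 granulosa and cumulus markers above background. Oocyte Aged + LRP1low had 4.34 and 4.53 FPKM of Vcan, both under background. The remaining 8 oocyte values ran from 0 to 0.802 FPKM.

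Cell type markers are given beside Vcan, since they differed between the same libraries. The 2 libraries with granulosa markers, Young and Aged + LRP1high replicate 3, had the 2 highest Vcan levels. Young also held 6 of 6 luteal and 6 of 6 stromal markers above background, with medians of 28.3 and 29.5 FPKM. Aged replicates 1 and 2 had the lowest granulosa marker medians, 0.0482 and 0.111 FPKM, with 0 of 10 granulosa markers above background, and the lowest Vcan. Aged + LRP1low replicates, with 0.151 and 0.217 FPKM of granulosa markers, had more Vcan than Aged + LRP1high replicate 2, with 0.418. They held 6 and 5 of 6 luteal and 5 and 3 of 6 stromal markers above background, against 0 and 0 of 6 luteal and 0 and 1 of 6 stromal markers in Aged. The Aged + LRP1high replicates held 5, 2 and 5 luteal and 3, 1 and 4 stromal markers. Aged + Unsorted, with the oocyte markers, had a granulosa median of 1.27 FPKM, 6 of 6 luteal and 3 of 6 stromal markers above background, and Vcan under it. The part of these cells in the Vcan difference was not tested.

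**Figure D3:**
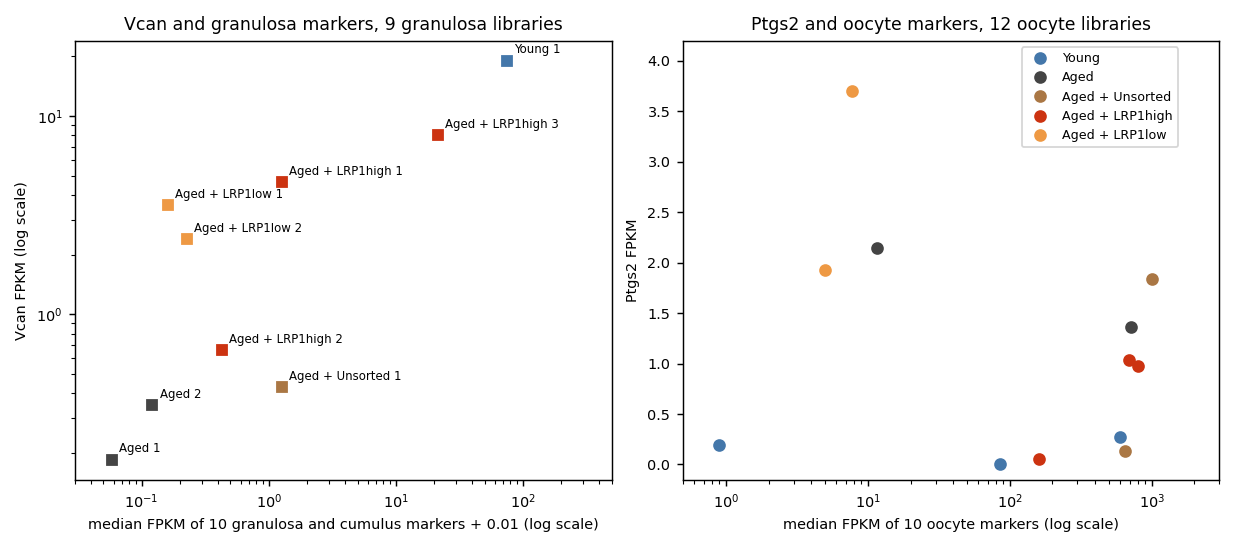
Left, Vcan FPKM (y, log scale) against the median FPKM of 10 granulosa and cumulus markers (x, log scale, 0.01 added) in the 9 granulosa libraries; right, Ptgs2 FPKM (y) against the median of 10 oocyte markers (x, log scale) in the 12 oocyte libraries, coloured by group. The 2 libraries with the highest granulosa markers have the highest Vcan (19.0 and 8.02 FPKM), and Ptgs2 reaches 1.84 FPKM among the 8 libraries rich in oocyte markers.

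Whether transplanted cells changed these genes in granulosa cells was tested with limma on log2(FPKM + 1), over 13002 genes with a mean of at least 1 FPKM. Calls needed a change of more than 1.5-fold with an adjusted p below 0.05. Vcan was the 1 member tested. Against Aged it differed by 1.79 in Aged + LRP1high (SE 0.75, limma adjusted p = 0.458) and by 1.64 in Aged + LRP1low (SE 0.82, limma adjusted p = 0.904), and it was called in neither. Between Aged + LRP1high and Aged + LRP1low the difference was 0.15 (SE 0.75, limma adjusted p = 0.926), with groups that overlapped. These comparisons share the Aged or the transplanted libraries. The background for each of the 3 is that 0% of genes were called, and 1106, 493 and 669 genes had an unadjusted p under 0.05. The median difference of all genes tested was 0.89 and 0.31 against Aged and 0.45 between the sorted groups. Young and Aged + Unsorted had 1 granulosa library each and entered no comparison.

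In oocytes 28004 genes were tested, among them Ptgs2, Ptx3, Tnfaip6, Pgr, Areg and Btc. Has2, Ereg and Vcan had means under 1 FPKM. All 6 passed this filter through the libraries with low oocyte markers, which held their high values. Over the 8 libraries rich in oocyte markers the mean of Ptgs2 was 0.709 FPKM, and those of the other 5 were 0 to 0.0751 FPKM. From Young to Aged, 0 of the 6 were called, where 0.0964% of all genes were. From Aged to Aged + Unsorted it was 0 of 6, with 0% of all genes called, and to Aged + LRP1high again 0 of 6, with 0.771%. In both of the latter comparisons Areg and Btc fell to 0 from values that 1 Aged library alone held, and their differences, -1.58 and -1.56, were not called. From Aged to Aged + LRP1low, 0 of 6 were called, with 3.17% of all genes. Leaving out Aged replicate 2 raised these counts to 2, 3, 3 and 1 of 6 in that order, while 32.03%, 35.9%, 38.6% and 9.53% of all genes were then called. Leaving out Aged replicate 1 raised the last to 3 of 6, with 32.5% of all genes. In these fits the 1 Aged library left is assumed to vary like the other groups. From Aged to Aged + LRP1low, Tnfaip6 differed by 2.70 (SE 0.66, limma adjusted p = 0.0534) and Ptx3 by 2.52 (SE 1.06, limma adjusted p = 0.299).

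Between Aged + LRP1high and Aged + LRP1low, 1 of the 6, Tnfaip6, was called, against 26.0% of all genes tested. With 9 of 12 libraries at 0 and a mean of 1.05 FPKM, Tnfaip6 was tested because of the Aged + LRP1low values, so the filter alone favoured a difference. It was lower in Aged + LRP1high by -2.70 on the log2 scale (SE 0.60, limma adjusted p = 0.0216), from 0 FPKM in all 3 libraries to 3.67 and 8.06. Since the lower group is listed at 0, no fold is given. The other 5 differed by -1.20 (Ptgs2), -2.29 (Ptx3), -2.31 (Pgr), -1.80 (Areg) and -2.05 (Btc), with limma adjusted p-values of 0.0576 to 0.158. For each of the 6 all 3 Aged + LRP1high values lay below both Aged + LRP1low values. The same held for Has2, Ereg and Vcan, which were not tested, and for 62.9% of all genes above 0 in these libraries.

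That comparison sets 3 libraries rich in oocyte markers against 2 without, and the whole transcriptome was shifted with it. The median difference of all 28004 genes was -1.89, and that of 561 receptor genes tested was -2.01, of which 178 (31.7%) were called lower and 0 higher. The median receptor gene stood at 2.62 and 2.23 FPKM in Aged + LRP1low and at 0, 0.0610 and 0 in Aged + LRP1high. Relative to the median of all genes, Tnfaip6 lay at -0.81 and Ptgs2 at 0.69. The Tnfaip6 call was lost when Aged + LRP1low replicate 2 was left out (limma adjusted p = 0.0550), and when any 1 of the 3 Aged + LRP1high libraries was (0.0767 to 0.0915). It was lost as well with a pseudocount of 0.1 (limma adjusted p = 0.0572) and after quantile normalization (difference -1.39, limma adjusted p = 0.242). With a replicate block 0 of 6 members were called, so the Tnfaip6 call was lost there too. Without Young replicate 1, 3 of 6 were called, with 35.5% of all genes, and without either Aged replicate 4 of 6, with 52.0%. Without the libraries at odds with their labels no Aged + LRP1low library remained, so the comparison could not be made.

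**Figure D4:**
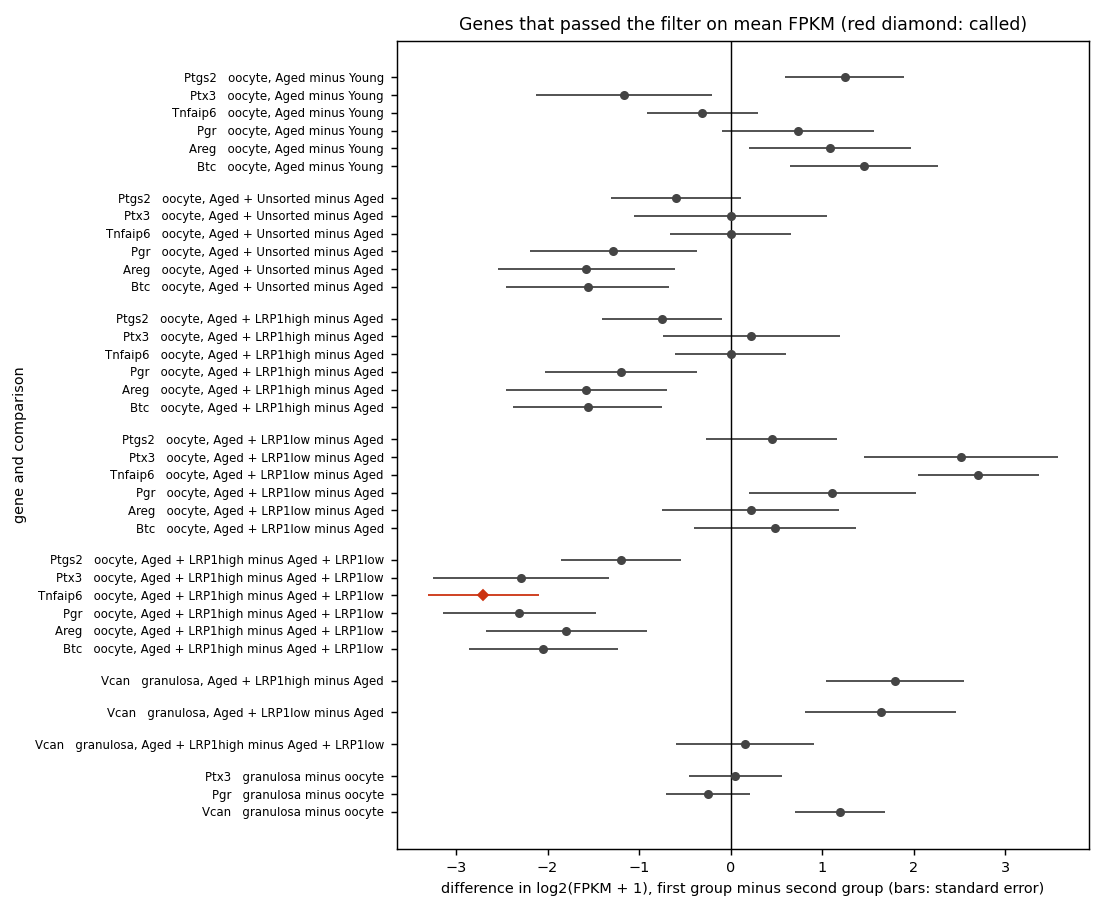
Differences in log2(FPKM + 1) (x, first group minus second) for each gene that passed the filter, by comparison (y), with bars of 1 standard error and a red diamond where called. The 1 call is Tnfaip6 in oocytes, Aged + LRP1high minus Aged + LRP1low (-2.70), and the 6 values of that comparison are all negative, as was the median of all genes (-1.89).

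Granulosa and oocyte libraries were compared over all 21 libraries with the condition in the model, to ask whether these genes mark the somatic cells in the data. Of 21767 genes tested 6.68% were called, and of Ptx3, Pgr and Vcan, the members with a mean of at least 1 FPKM, 0 of 3 were. Vcan was higher in granulosa libraries by 1.19 (SE 0.49, limma adjusted p = 0.152), against a median of -0.63 over all genes. Ptx3 differed by 0.05 (SE 0.51) and Pgr by -0.25 (SE 0.46). Both passed the filter through the oocyte libraries with low oocyte markers, so they do not answer that question. Their means were 0.890 and 0.581 FPKM over the 9 granulosa libraries, and 0.0751 and 0.0240 over the 8 oocyte libraries rich in oocyte markers. When the 11 libraries at odds with their labels were left out, Vcan differed by 3.36 (SE 0.37, limma adjusted p = 0.0106) and was called, with 6.05% of all genes called and a median of 0.25 over them. With the condition in the model, this difference rested on Young and Aged + LRP1high, the conditions left with both cell types. There Vcan stood at 19.0 and 8.02 FPKM in the 2 granulosa libraries, kept for their granulosa markers. In the oocyte libraries kept, Vcan was 0 and 1.58 FPKM in Young and 0 to 0.139 in Aged + LRP1high. It was also called, with 2.23 (SE 0.62, limma adjusted p = 0.0487), when TPM was rescaled after removal of 6 genes that held 5% or more of a library, with 2.22% of all genes called. Both settings were added after the data were seen. The difference between the LRP1high effects in granulosa and oocyte libraries was 1.76 for Vcan (SE 1.01, limma adjusted p = 0.327), and 0 of 3 members were called, with 0% of all genes called and 3493 at an unadjusted p under 0.05. Without oocyte Aged replicate 2, 1 of 3 was called, with 34.7% of all genes.

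The rest of the pathway was read from 6 lists with 70 genes, all found. In granulosa Young 56 of the 70 lay above background, in Aged + LRP1high 24, 15 and 33, in Aged 3 and 5, in Aged + LRP1low 27 and 9, and in Aged + Unsorted 35. Oocyte libraries ranged from 9 in Aged replicate 2 to 47 in Young replicate 3. Areg and Has2 were listed at 0 in the granulosa Young library that held most of the pathway. Its Lhcgr, the receptor of luteinizing hormone, stood at 42.2 FPKM, below the 78.8 of Aged + LRP1low replicate 1, which held luteal markers. In granulosa Young, Gja1, the gap junction protein of granulosa cells, stood at 1744 FPKM and Fos at 359. Adamts1, the protease that cleaves versican, was 6.48 FPKM there and under background in the other 8 granulosa libraries. By the naming rule, each list's gene with the highest mean over the granulosa libraries is named. These were Adam10 (a membrane protease, 0.111 to 284 FPKM), Gja1 (0.302 to 1744) and Ptges3 (a prostaglandin E synthase and cochaperone, 0.419 to 604). Ugdh (which makes the hyaluronan precursor UDP-glucuronate) had 0.205 to 23.9 FPKM and Fos 0 to 359. Cyp11a1 (the first enzyme of steroid synthesis) had 0 to 3503. By median another gene stood above Fos and Cyp11a1 in their lists, Cebpb (14.7 against 0.636 FPKM) and Ctsl (13.6 against 11.1).

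In the granulosa comparisons, 0 of the listed genes were called. In oocytes 0 of them were called from Young to Aged or from Aged to any transplanted group. Between Aged + LRP1high and Aged + LRP1low, where 26.0% of all genes were called, the 6 lists gave 1 gene higher and 21 lower of 58 tested. Lower were 3 of 9 EGF-like ligand and receptor genes (Erbb3, Egf and Nrg1), 2 of 7 cyclic nucleotide genes (Pde4d and Pde5a), 4 of 9 prostaglandin genes (Slco2a1, Ptger2, Ptgs1 and Pla2g4a) and 3 of 10 hyaluronan genes (Cd44, Itih1 and Has3). So were 5 of 14 transcription regulators (Fos, Nr4a1, Creb1, Runx2 and Jun) and 4 of 9 effectors (Rgcc, Snap25, Edn2 and Star). Several of these genes passed the filter only through the libraries with low oocyte markers, so the filter alone favoured a difference. Among them were Erbb3, Ptger2, Cd44, Itih1, Runx2, Jun and Edn2. Their highest values in the 8 libraries rich in oocyte markers were 0.164 (Ptger2) to 0.435 FPKM (Erbb3). Others reached more there, such as Egf with up to 8.22 FPKM. Ptges3 was the gene that was higher, by 6.34 (SE 1.81, limma adjusted p = 0.0353). The list medians ran from -2.73 to -1.79, against -1.89 over all genes. Ptges3 stood at 204 to 1246 FPKM in the 8 libraries rich in oocyte markers.

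Between cell types 4 of 56 listed genes tested (7.14%) were called, near the 6.68% of all genes. Ctsl, a lysosomal protease induced in ovulation, was higher in granulosa libraries by 2.76 (SE 0.83, limma adjusted p = 0.0431), and Cyp11a1 by 3.54 (SE 1.05, limma adjusted p = 0.0397). Cyp11a1 is also 1 of the luteal markers. It stood at 3503 FPKM in Aged + LRP1low replicate 1, 1341 in Aged + LRP1high replicate 1 and 632 in Young. In Aged + LRP1high replicate 3, with granulosa markers, it was 11.1, and in Aged 0 and 0.0497. Plat, the tissue plasminogen activator whose mRNA oocytes store, was lower in granulosa libraries, by -3.71 (SE 0.78, limma adjusted p = 0.00661). Pde3a, the phosphodiesterase that controls cyclic AMP in the oocyte, was lower by -1.74 (SE 0.53, limma adjusted p = 0.0452). Plat was 20.5 to 376 FPKM and Pde3a 0.0948 to 21.1 FPKM in the 8 oocyte libraries with their markers. The granulosa Aged + Unsorted library, with oocyte markers but counted as granulosa here, lay inside both ranges (284 and 14.7 FPKM).

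The genes whose granulosa profile was most like that of the members were sought over the 9 granulosa libraries. Since Vcan was the only member tested there, the profile is that of Vcan. The 5 genes with the highest Pearson correlation of log2(FPKM + 1) among 13001 were Vegfa (0.98), Impact (0.97), Inhbb (0.96), Col3a1 (0.96) and Fn3krp (0.96). Of all genes 0.838% exceeded 0.9, and the 9 points share the differences in granulosa RNA and depth given above. In granulosa Young, Vegfa, an angiogenic growth factor, was 14.3 FPKM and Inhbb, an inhibin subunit of granulosa cells, 528 FPKM. In Aged + LRP1high replicate 3 they were 6.59 and 141 FPKM.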

How the data were processed

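RNA of mouse oocytes (12 libraries) and granulosa cells (9) was analysed, grouped by the labels. Reads were aligned by the authors with HISAT2 2.2.1 and quantified with StringTie 1.3.3b, per the labels, which name polyA RNA and a KAPA stranded kit while the study's methods name Smart-seq2. For each library the authors deposited FPKM, TPM and coverage (signal per base) for 55335 identifiers, with no counts. The labels name mm9, but 54577 identifiers match GENCODE M21 (GRCm38) in version and position, so coordinates are GRCm38. FPKM was added up over repeated identifiers. Depth is the median of coverage over FPKM in 21693 genes with 1 exon.

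Genes averaging 1 FPKM or more over the libraries of a fit were tested with limma 3.58.1 (R 4.3.3) on log2(FPKM + 1), which understates changes of low genes, with Benjamini-Hochberg adjustment over all genes of a fit and the study's thresholds for a call. Code was tested on simulated data, with 100 genes changed by 3 on the log2 scale in each fit. Called were 14 between Aged + LRP1high and Aged + LRP1low in oocytes and 35 in granulosa cells. Between cell types 88 were called, and 0 for the difference of LRP1high effects. A gene that was not called may therefore still differ. Alternatives were a pseudocount of 0.1, no filter, TPM, quantile normalization, limma trend and robust, leaving out each library, and a replicate block. Another 3 were added after the data were seen. All 9 members are named, with listed genes that were called or most abundant in granulosa libraries of their list, and the 5 genes most like the members. Lhcgr, Adamts1, Gja1 and Fos in granulosa Young were named after their values were seen. The members, lists and tests were chosen with earlier results of these data known.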

Additional observations from a re-analysis of the deposited data

How the results depend on the processing

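From Aged to Aged + LRP1low in oocytes, where 0 were called, 3 of 9 were called with no filter, 2 of 8 with TPM, 1 of 6 with limma trend and robust and 3 of 9 with TPM rescaled without the dominant genes, beside 21.8%, 18.3%, 4.75% and 20.1% of all genes. Between Aged + LRP1high and Aged + LRP1low, 0 were called with a pseudocount of 0.1, quantile normalization or a replicate block (0%, 2.05% and 0% of all genes), 6 of 9, 8 and 9 with no filter, TPM or rescaled TPM (42.5%, 47.7% and 50.3%) and 3 of 6 with trend and robust (36.1%). Between granulosa and oocytes, 1 was called with rescaled TPM and 1 without the libraries at odds with their labels. Leaving out 1 library at a time gave 0 to 2 calls from Young to Aged, 0 to 3 from Aged to Aged + Unsorted, to Aged + LRP1high and to Aged + LRP1low, 0 to 4 between Aged + LRP1high and Aged + LRP1low, and 0 to 1 for the difference of LRP1high effects. Each of these highest counts needed the removal of an oocyte Aged library, mostly replicate 2, without which 2, 3, 3, 1, 4 and 1 members were called in that order. The counts over all genes moved as well, for example from 0 to 10064 for Aged + Unsorted against Aged without oocyte Aged replicate 2, and from 216 to 10803 for Aged + LRP1high against Aged. The cause was not tested.

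In oocytes Tnfaip6 was listed at 0 in every Aged and Aged + LRP1high library, so its direction was nearly fixed in advance. Tnfaip6 kept that direction in all 19 alternatives of both of its comparisons with Aged + LRP1low. It was called in 12 of 19 against Aged + LRP1high and in 8 of 19 against Aged, with adjusted p-values of 0.000714 to 0.242 and 0.00145 to 0.433. Vcan in granulosa cells was called in 0 of 16 alternatives of each comparison. Its difference between Aged + LRP1high and Aged + LRP1low turned negative with quantile normalization (-0.78), with rescaled TPM (-0.10), without Aged + LRP1high replicate 1 (-0.03) or 3 (-0.37) and without Aged + LRP1low replicate 2 (-0.06), and over single libraries left out it ran from -0.37 to 0.86. With the replicate block it was -0.37. Deviations of libraries that share a number correlated at -0.29 to 0.44 over genes. The highest was between replicate 1 of oocyte Aged and of oocyte Young, both low in oocyte markers. The numbers were not read as pairs.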
